A study of Mus musculus with 4 samples.

Results

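Non-coding RNA was measured by 4808 of the 56605 distinct probes of a single-colour Agilent mouse array, chosen as all non-control probes whose target is a RefSeq transcript of the NR class (curated non-coding RNA, 2895 probes) or the XR class (predicted non-coding RNA, 1913 probes). The samples were cultures of S-180, a transplantable mouse sarcoma line grown with serum. Control cells were left untreated and the other group received fluoxetine at 20 µM for 12 h. Fluoxetine is an antidepressant that blocks serotonin reuptake. There were 2 arrays per group, which the labels call biological replicates. Whether the cultures were separate is not stated, so the p-values measure only the spread between these samples. The replicates are called control 1, control 2, fluoxetine 1 and fluoxetine 2. S-180 is 1 cell line, so nothing here extends to other cells, and in such bulk samples fewer cells of a type and less RNA per cell cannot be told apart.

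The array files name transcripts by accession and carry no gene symbols. Through the RefSeq gene table of GRCm38.p6, 4087 of these probes matched 1 gene, covering 3742 symbols, and 721 matched none. After 6 probes with flagged spots were left out, 4802 remained. By the matched gene they were long non-coding RNA (lncRNA, 3387 probes), pseudogenes (310), antisense RNA (183), non-coding variants of protein-coding genes (138), hosts of small RNA (35), small RNA genes (29) and probes with no matched gene (720).

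Long non-coding RNA is transcribed and often spliced like messenger RNA but has no long reading frame. Some of it acts in the nucleus: Neat1 is the scaffold of paraspeckles, nuclear bodies that hold RNA-binding proteins and edited RNA, and Kcnq1ot1 silences neighbouring genes on the paternal chromosome. Small nucleolar RNA (snoRNA), which guides the chemical modification of ribosomal RNA, is cut from the introns of host genes such as Gas5 and the Snhg family. Many of these hosts belong to the growth-regulated class whose transcripts begin with a run of pyrimidines, and their spliced products are typically removed by nonsense-mediated decay.

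The starts of 6 host genes are shown because their probes were lower after fluoxetine. Each window runs from 100 bases before to 50 bases after the RefSeq start, 5′ to 3′ on the gene's strand, from RefSeq with build GRCm38.p6. The motif TATAAA, where present on either strand, is in capitals. The windows are chr4:132353637-132353786 on the minus strand for Snhg3, chr9:88522848-88522997 minus for Snhg5, chr2:26640195-26640344 minus for Snhg7, chr17:24719916-24720065 minus for Snhg9, chr4:132308578-132308727 plus for Snhg12 and chr11:117076683-117076832 plus for Snhg20.
Snhg3: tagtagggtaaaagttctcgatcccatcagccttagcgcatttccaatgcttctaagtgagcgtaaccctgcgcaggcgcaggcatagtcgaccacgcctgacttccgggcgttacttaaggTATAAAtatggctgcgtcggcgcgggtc
Snhg5: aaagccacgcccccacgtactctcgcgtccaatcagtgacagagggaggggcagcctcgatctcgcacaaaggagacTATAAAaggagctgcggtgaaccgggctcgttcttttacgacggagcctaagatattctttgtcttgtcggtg
Snhg7: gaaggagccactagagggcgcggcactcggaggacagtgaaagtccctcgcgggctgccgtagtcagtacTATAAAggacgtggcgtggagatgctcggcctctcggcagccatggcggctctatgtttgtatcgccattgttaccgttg
Snhg9: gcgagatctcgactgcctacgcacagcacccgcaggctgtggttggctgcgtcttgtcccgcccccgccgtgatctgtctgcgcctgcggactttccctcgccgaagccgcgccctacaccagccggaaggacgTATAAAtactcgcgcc
Snhg12: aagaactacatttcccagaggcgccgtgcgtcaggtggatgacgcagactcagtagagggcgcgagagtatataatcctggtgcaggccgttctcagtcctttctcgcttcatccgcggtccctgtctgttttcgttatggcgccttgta
Snhg20: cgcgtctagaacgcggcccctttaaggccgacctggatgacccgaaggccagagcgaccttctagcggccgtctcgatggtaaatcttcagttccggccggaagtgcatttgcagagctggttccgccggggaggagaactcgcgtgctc

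The motif begins at position -23 in Snhg5 and at position -30 in Snhg7, counted from the RefSeq start. In Snhg3 it begins at 23 and in Snhg9 at 35, past that start. In Snhg12 and Snhg20 these letters were not found. Of 16 tested host genes with an entry in the promoter table (of 19), 7 held TATAAA on either strand within 300 bases, namely Dleu2, Snhg1, Snhg3, Snhg5, Snhg7, Snhg8 and Snhg9, of which Dleu2 and Snhg8 were not called changed. The motif was present for 15.7% of all 27025 genes in the table, or 13.6% of its 32851 windows. The other motifs searched, on both strands, were CACGTG in 3 of the 16 hosts (8.09% of genes), CCAAT in 7 (41.1%), CTTCCGG in 4 (9.93%) and TGACGTCA in 2 (2.03%). A match is a description of the letters and was not tested as a site.

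Of the host genes for microRNA, 3 enclose a microRNA gene whose mature sequence is shown, from RefSeq, with the seed (bases 2 to 8) in capitals, because the host's level and not the microRNA's was measured here. Mir100hg encloses miR-100, Mir22hg encloses miR-22, and Dleu2 encloses miR-15a and miR-16, which share the seed AGCAGCA.
mmu-miR-100-5p: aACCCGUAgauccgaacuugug
mmu-miR-22-3p: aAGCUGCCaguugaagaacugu
mmu-miR-15a-5p: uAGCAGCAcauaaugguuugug
mmu-miR-16-5p: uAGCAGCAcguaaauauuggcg

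Fewer non-coding than coding probes were detected. A probe was tested when the scanner software marked it well above background in both replicates of the control or the fluoxetine group, which held for 1318 of 4802 non-coding probes (27.4%), against 18884 of 30879 coding transcript probes (61.2%). On single arrays 1298 to 1408 non-coding probes were well above background, 1094 were so on all 4 arrays and 3039 on none. Across those 1094 probes, which are not independent of each other, Pearson's r was 0.987 between the controls, 0.991 between the fluoxetine arrays and 0.965 to 0.974 between groups. All 4 arrays shared 1 slide and 1 scan, and no non-control spot was saturated. Levels below are log2 values relative to each array's 75th percentile, which was 675 and 631 signal units on the controls and 554 and 643 on the fluoxetine arrays, and levels of different probes are not compared.

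The sarcoma label was checked against markers. Of 10 mesenchymal markers, 6 (Vim, S100a4, Pdgfra, Col1a1, Fn1 and Cd44) were above background on all 4 arrays, and Pdgfrb, Col3a1 and Thy1 on none. Of the 7 tested, Col1a1 and Col1a2 fell. Col1a2 was above background on both controls but not on both fluoxetine arrays (-5.86 and -5.92), so the size of its fall is uncertain. The epithelial markers Epcam, Krt8, Krt18 and Krt19 were also above background on all 4 arrays, which the sarcoma label does not foresee, and Cdh1 on none. Of 12 leukocyte markers 6 were tested: Cd68 and Cd3e rose, Itgam fell, and Ptprc, the pan-leukocyte marker, was above background on no array. The median change of the 6 was -0.05. Their summed level, in units of each array's 75th percentile, was 19.2 and 20.4 in controls and 41.1 and 36.6 after fluoxetine, with Cd68 (3.70 and 3.85 against 5.23 and 5.03 on the log2 scale) carrying the increase. The erythroid marker Hba-a1 rose by 2.06 ± 0.08 (SE), while Alas2 was above background on no array. The part of such markers in the changes of non-coding RNA was not tested.

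More non-coding probes fell than rose under this scaling. Of 1318 tested probes, 113 (8.57%) rose and 237 (18.0%) fell at an adjusted p under 0.05 by limma with Benjamini-Hochberg adjustment over all 28270 tested probes, and 968 were not called. Over all tested probes of the array 26.5% were called, 12.1% as higher and 14.4% as lower, and coding transcript probes were called higher in 14.8% and lower in 9.46%. Split by brightness, the remaining probes, neither RefSeq coding nor non-coding, were called lower in 16.2% to 30% and higher in 4.09% to 11.2%. Non-coding probes in the same brightness bins were called lower in 15.1% to 25% and higher in 4.75% to 15.7%. More falls than rises were thus not particular to the non-coding probes. The median log2 change was -0.07 over non-coding probes, -0.04 over all probes and 0.03 over coding transcript probes. The groups did not overlap for 919 non-coding probes (69.7%), beside 73.2% of all probes. A change of at least 2-fold was called as higher for 23 and as lower for 105 of the 1318 non-coding probes. Over all 28270 tested probes these numbers were 540 and 1351. Such counts include probes well above background in only 1 group, for which the fold is only a bound.

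The balance of rises and falls depended on the scaling. Scaled to each array's median, which moved the median change of all probes from -0.04 to 0.21, 290 non-coding probes rose and 158 fell, and after quantile normalization 149 rose and 202 fell. The number of calls depended on each array: limma called 0 non-coding probes without control 1, fluoxetine 1 or fluoxetine 2 (496, 434 and 463 had an unadjusted p under 0.05), and 98 higher and 148 lower without control 2. All 350 called probes kept their direction in each of these fits, though leaving out an array cannot turn a probe whose groups do not overlap.

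**Figure D1:**
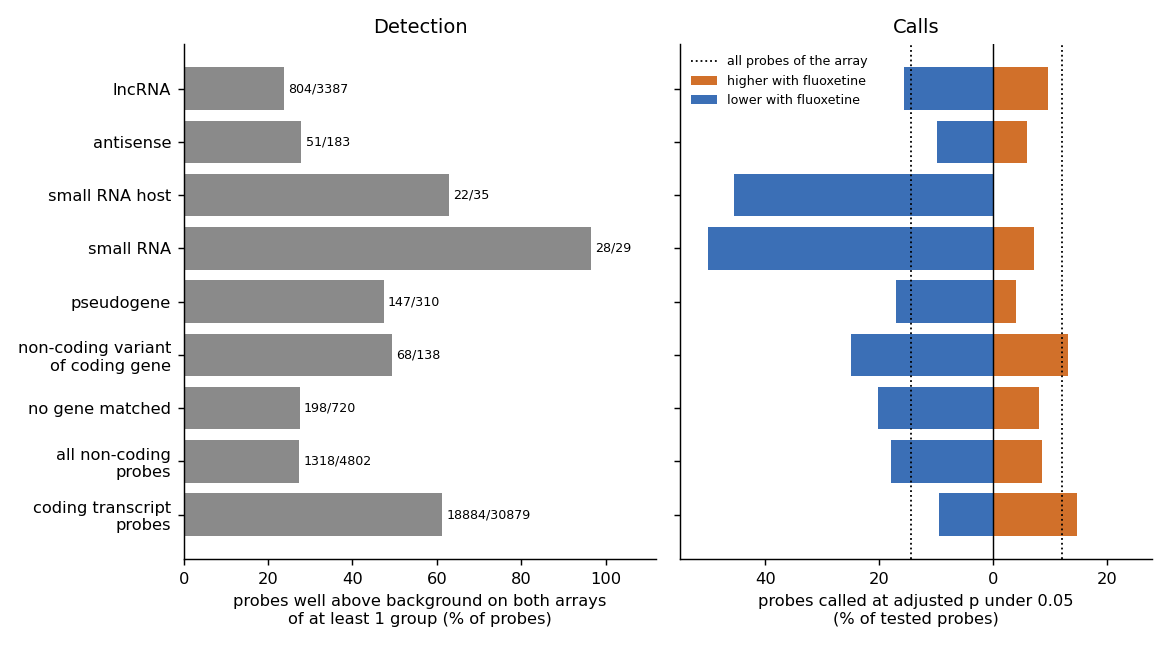
Detection and calls by RNA type. The left panel shows the percentage of probes of each type that were tested, with tested over all probes printed beside each bar; the right panel shows the percentage of tested probes called higher (orange) or lower (blue) after fluoxetine, with dotted lines at 12.1% and 14.4% for all probes of the array. Hosts of small RNA and small RNA genes reach 45.5% and 50% lower, past the dotted line.

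Host genes of small RNA were lower after fluoxetine. Of 22 tested host probes (19 genes), 10 fell and 0 rose, 12 were not called, and 15 had an unadjusted p under 0.05. The median change was -0.49, with 20 changes below 0 and 2 above. Snhg7 had 2.84 and 2.66 in the controls and 1.39 and 1.43 after fluoxetine, a fall by 1.34 ± 0.10 on the log2 scale (SE, n = 2 arrays per group, limma adjusted p = 0.0142). Snhg4 had -0.88 and -1.05 in the controls and -2.00 and -2.06 after fluoxetine, a fall by 1.07 ± 0.10 (limma adjusted p = 0.0152). In both genes each fluoxetine array lay below each control array.

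Among the other hosts called lower, Snhg20 read 4.90 and 4.96 in controls and 4.20 and 4.11 after fluoxetine, and fell by 0.78 ± 0.08. Snhg12 read 4.51 and 4.37 against 3.63 and 3.78, and fell by 0.74 ± 0.10. Snhg5 read 4.77 and 4.79 against 4.14 and 4.06, and fell by 0.69 ± 0.08. For none of the 3 did the groups overlap. Snhg9 (2.45 and 2.45 against 1.76 and 1.73) fell by 0.70 ± 0.07, Snhg3 (5.22 and 5.45 against 4.79 and 4.75) by 0.56 ± 0.11 and Snhg1 (2.54 and 2.65 against 2.18 and 2.20) by 0.40 ± 0.08.

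Gas5, named for growth arrest, gave a mixed picture by probe. Its dimmer probe read 4.21 and 3.99 in controls and 3.37 and 3.14 after fluoxetine and fell by 0.85 ± 0.14 (limma adjusted p = 0.0283). Its brighter probe read 6.17 and 6.11 against 5.89 and 5.92, a change of -0.23 ± 0.08 that was not called (limma adjusted p = 0.0974). Neither probe's groups overlapped. Mir100hg likewise had a called probe (0.43 and 0.40 against -0.20 and -0.37, a fall by 0.70 ± 0.10) and another at -0.23 ± 0.16 that was not called.

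The other tested hosts were not called. Snhg6 changed by -0.85 ± 0.32 on uneven controls (2.47 and 1.70). Snhg15 (2 probes), Snhg16, Epb41l4aos and Mirc35hg had changes from -0.55 to -0.29. For Snhg8, Snhg10 and Dleu2 the groups overlapped. Mir22hg read -0.40 and -0.30 in controls and 0.01 and -0.04 after fluoxetine, at 0.34 ± 0.08 (limma adjusted p = 0.0588). Snhg14, Snhg18, Mir155hg and Mir99ahg were above background on no array.

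Under median scaling 8 host probes fell and 1, Mir22hg, rose, and Snhg1 (adjusted p = 0.178) and Snhg3 (adjusted p = 0.0852, both limma) were no longer called. Without control 2, 3 host probes were called lower. Snhg1 was also not called (limma adjusted p = 0.0551) with the percentile taken over probes in place of spots.

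**Figure D2:**
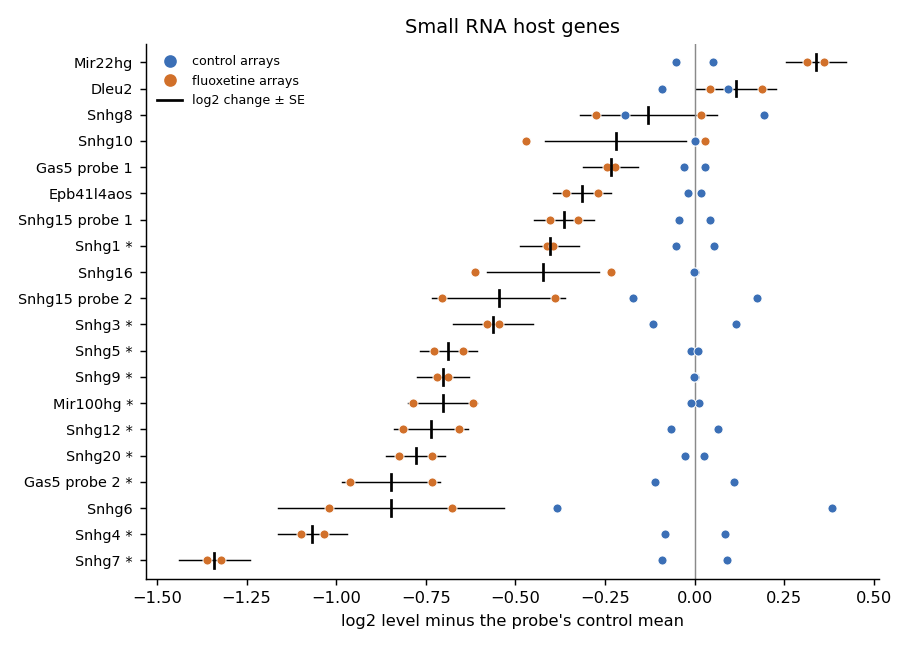
Small RNA host genes on each array. The Mir100hg probe that was not called and Mirc35hg, also not called, are not drawn. The horizontal axis is the log2 level minus the probe's control mean; blue points are the 2 controls, orange points the 2 fluoxetine arrays, the black tick and line are the log2 change ± SE, and an asterisk marks probes called at adjusted p under 0.05. Snhg7 lies farthest left at -1.34, and Mir22hg and Dleu2 lie to the right of 0.

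Small and structured RNA genes were also mostly lower. Of 28 tested probes of 28 genes, 14 fell, 2 rose and 12 were not called, with a median change of -0.48 and 23 changes below 0. The U1 small nuclear RNA, which recognises the start of introns, was represented by 3 near-identical genes whose probes may share RNA. Rnu1b6 read 4.50 and 4.36 in controls and 2.86 and 2.82 after fluoxetine and fell by 1.59 ± 0.09 (limma adjusted p = 0.0142). Rnu1b1 (4.30 and 4.22 against 2.86 and 2.69) fell by 1.49 ± 0.10 and Rnu1a1 (4.63 and 4.70 against 3.41 and 3.22) by 1.35 ± 0.10. The groups were apart for all 3 probes, which count as 1 family.

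Rn7sk, the RNA that holds the elongation factor P-TEFb inactive, read 5.82 and 5.74 in controls and 4.48 and 4.38 after fluoxetine, a fall by 1.35 ± 0.09 (limma adjusted p = 0.0142). The RNA subunit of RNase MRP, Rmrp, read 2.58 and 2.42 against 1.73 and 1.68 and fell by 0.79 ± 0.10. The RNA subunit of RNase P, Rpph1, read 1.66 and 1.64 against 1.17 and 1.05 and fell by 0.55 ± 0.09. Each of these 3 RNA polymerase III products had both fluoxetine arrays below both controls. The RNase P-like genes Rprl1 and Rprl2 also fell, by 0.66 ± 0.08 and 0.95 ± 0.16, and Rprl3 was not called. Rn4.5s, a rodent RNA polymerase III transcript present in many copies, fell by 0.44 ± 0.08, and Rn28s1, from the ribosomal RNA of the large subunit, fell by 0.79 ± 0.15.

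Other structured RNA genes were not called: Rn7s1 of the signal recognition particle (-0.32 ± 0.11), Rnu12 of the minor spliceosome (-0.40 ± 0.13), Rnu2-10 of the major spliceosome (-0.13 ± 0.10) and the nucleolar U3 gene Rnu3b1 (0.41 ± 0.09, limma adjusted p = 0.051). Terc, the telomerase template RNA, read -2.62 and -2.59 in controls and -1.62 and -2.54 after fluoxetine, so 1 fluoxetine array carried its change of 0.53 ± 0.35.

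Guide RNA genes went both ways. Snora34 read -0.90 and -0.97 in controls and 1.72 and 1.72 after fluoxetine, a rise of 2.66 ± 0.08 (limma adjusted p = 0.0142). The Cajal body RNA Scarna6 was well above background only after fluoxetine and was at least 1.81-fold higher. Snora81 was well above background only in controls and was at least 2.48-fold lower. Snord7 fell by 0.95 ± 0.13, Snora73a by 0.52 ± 0.10 and Snord33 by 0.40 ± 0.08. Under median scaling Rn28s1, Rn4.5s, Rpph1, Snora73a and Snord33 were no longer called, with adjusted p from 0.0609 to 0.183 by limma, and the counts became 4 higher and 9 lower.

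Several guide RNA genes lie inside a host that had its own tested probe. Snora73a (-0.52, called lower) lies in Snhg3 (-0.56, called lower). Snora78 (-0.61, not called) lies in both Snhg9 (-0.70, called lower) and Rps2 (0.12, not called), and Snora74a (-0.33, not called) in Snhg4 (-1.07, called lower). Among protein-coding hosts, Snora81 fell with Eif4a2, which read -0.55 ± 0.09 and was called lower. Snora23 (0.34, not called) lies in Ipo7 (0.56, called higher), and Snord33 (-0.40, called lower) in Rpl13a (-0.51, not called). Scarna13 in Snhg10, Snora52 in Rplp2 and Snord17 in Snx5 had no call on either side. Snora34 rose within Kansl2 (0.10 ± 0.09, not called), and Scarna6 within Atg16l1 (-0.24 ± 0.09, not called). Whether a probe reads the processed small RNA or the unspliced host cannot be told apart with these files, which hold no probe sequences.

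**Figure D3:**
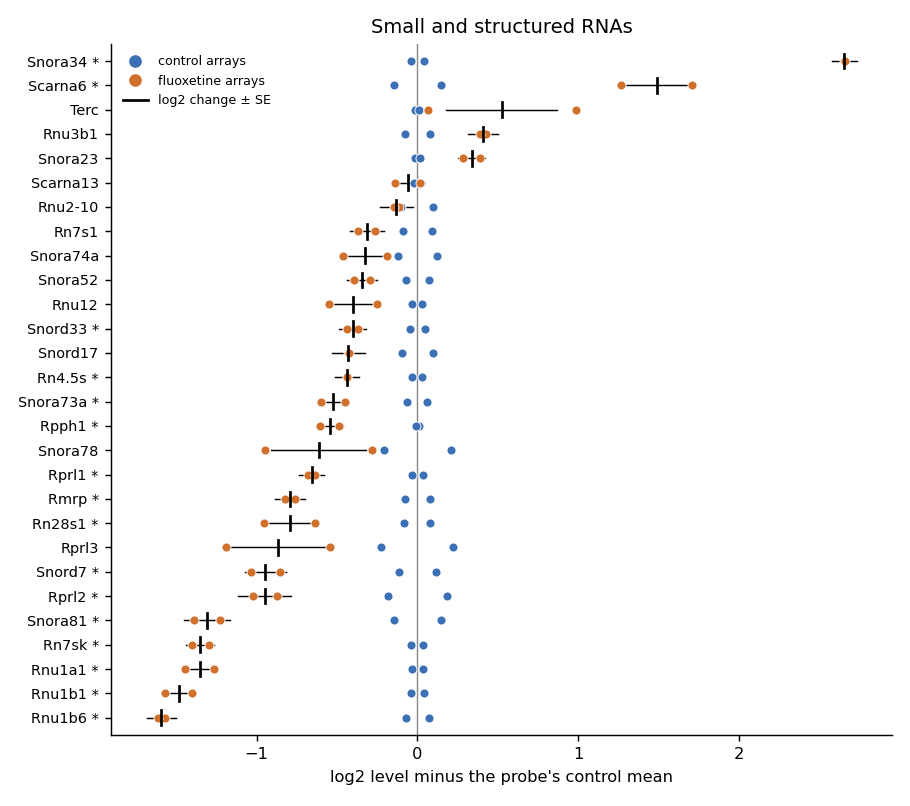
Small and structured RNA genes on each array. The horizontal axis is the log2 level minus the probe's control mean; blue points are controls, orange points fluoxetine arrays, the black tick and line are the log2 change ± SE, and an asterisk marks called probes. Snora34 stands at 2.66, and Rnu1b6 at -1.59.

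Among well-known long non-coding RNA genes, Neat1 and Dubr rose and 8 fell. These are the 36 lncRNA genes with a probe here on a list of known non-coding RNA genes, and 19 of them had a tested probe. The rest of that list were the hosts and small RNA genes described above and 4 antisense genes, of which 1, Oip5os1, was tested. A gene was counted when any of its tested probes was called. Counted per probe, 12.1% of all tested probes of the array were called higher and 14.4% lower. Both Neat1 probes rose. The brighter read -0.73 and -0.64 in controls and 0.65 and 0.66 after fluoxetine, a rise of 1.34 ± 0.08 (limma adjusted p = 0.0142). The dimmer read -1.31 and -1.28 against -0.80 and -0.74, a rise of 0.53 ± 0.08 (limma adjusted p = 0.0241). Neither probe's groups overlapped. Dubr, which lies upstream of Dppa2 and is known for a role in muscle differentiation, read 0.08 and 0.11 against 1.15 and 1.19 and rose by 1.08 ± 0.07. Gt(ROSA)26Sor, the ubiquitously transcribed Rosa26 locus used for transgenes, read 0.40 and 0.56 against 1.10 and 1.18 and rose by 0.66 ± 0.10.

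Kcnq1ot1, the imprinted antisense RNA of the Kcnq1 locus, was lower on 4 tested probes. Its probe numbered 3 by brightness read -1.78 and -1.34 in controls and -2.98 and -2.99 after fluoxetine and fell by 1.43 ± 0.18 (limma adjusted p = 0.0197). Another read -2.07 and -2.28 against -3.71 and -3.39 and fell by 1.37 ± 0.16. The remaining 2 probes changed by -1.55 ± 0.34 (called, limma adjusted p = 0.0482) and -1.36 ± 0.31 (not called, limma adjusted p = 0.0507). On all 4 the groups were apart, and 1 further probe was above background on no array. The probe at -1.55 was not called under median scaling (adjusted p = 0.0599) or quantile normalization (adjusted p = 0.0525, both limma).

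Lncpint, a p53-regulated lncRNA, read 0.42 and 0.63 in controls and -0.84 and -0.61 after fluoxetine on its brighter probe, a fall by 1.25 ± 0.13, while its dimmer probe changed by -0.25 ± 0.09 and was not called. Crnde, named for its expression in colorectal neoplasia, fell on both probes, by 1.07 ± 0.16 and 0.59 ± 0.08. Pvt1, the neighbour of Myc, read 1.10 and 1.07 against 0.66 and 0.67 on the brighter probe and fell by 0.42 ± 0.07. Its other probe fell by 0.73 ± 0.09. Morrbid, known as a regulator of the death gene Bcl2l11 in myeloid cells, fell on both probes, by 0.47 ± 0.08 and 0.83 ± 0.12. Itgam, a myeloid marker, fell by 1.99 ± 0.08 in the same samples. Of the other tested leukocyte markers, Cd68 and Cd3e rose, by 1.36 ± 0.12 and 0.49 ± 0.10, and Cd4, Csf1r and S100a8 were not called. The part of myeloid cells in the Morrbid value was not tested.

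Chaserr, a lncRNA known to restrain its neighbour Chd2, read 4.44 and 4.45 in controls and 4.00 and 3.93 after fluoxetine and fell by 0.48 ± 0.08 (limma adjusted p = 0.0275). Chd2, a chromatin remodeller, rose by 0.69 ± 0.08 (limma adjusted p = 0.0177). A link between these changes was not tested. Miat fell by 0.65 ± 0.10, and Fendrr, well above background only in controls, was at least 1.70-fold lower. Under median scaling Chaserr (-0.24), Miat (-0.40), the brighter Pvt1 probe (-0.17) and the brighter Morrbid probe (-0.22) were no longer called.

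Not called were Zfas1 (-0.39 ± 0.09, limma adjusted p = 0.0538), Tug1, Firre, Jpx, Airn, Bvht, Oip5os1, Vaultrc5 and Platr4. Vaultrc5 is a vault RNA, a small RNA that the typing by biotype and symbol counted with lncRNA. It changed by -0.35 ± 0.08 (limma adjusted p = 0.0537). The 4 probes of Norad, the Pumilio-binding RNA, were not called and did not share a sign: the brightest changed by 0.23 ± 0.12 and the others by -0.69 to -0.35. Of 4 Meg3 probes, 1 was above background on 1 fluoxetine array and 3 on no array. Xist, Rian, Ftx, Sox2ot, Rmst, Peg13, Hottip, Pantr1, Tunar, Carmn, Mhrt, Nron and Nctc1 were above background on no array, and H19 on 1 fluoxetine array. Malat1, Hotair, Dancr, Tsix and Mir17hg are among 20 list names with no matched non-coding probe and are not analysed here.

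**Figure D4:**
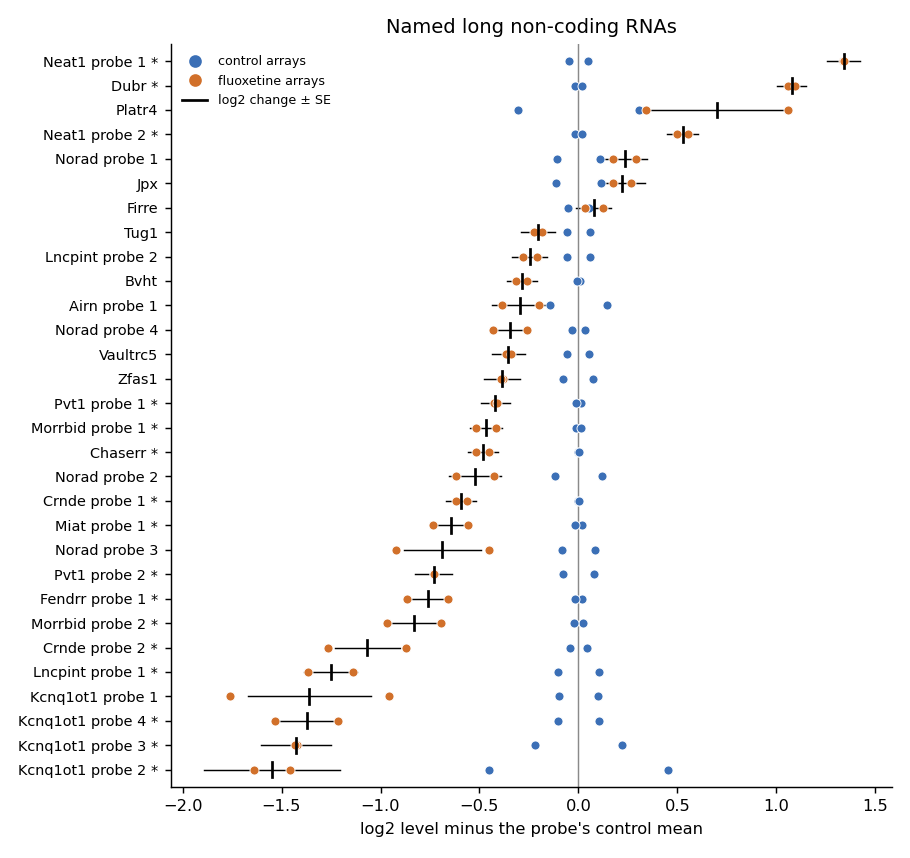
Named long non-coding RNA genes on each array, with the vault RNA Vaultrc5, which was typed as lncRNA. The horizontal axis is the log2 level minus the probe's control mean; blue points are controls, orange points fluoxetine arrays, the black tick and line are the log2 change ± SE, an asterisk marks called probes, and probes of a gene are numbered by brightness. Both Neat1 probes lie right of 0, at 1.34 and 0.53, and 4 Kcnq1ot1 probes lie between -1.55 and -1.36.

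The largest rises among probes above background on all 4 arrays were led by AY036118, whose transcript is known to overlap ribosomal RNA sequence. Its first probe read 3.38 and 3.14 in controls and 6.40 and 6.37 after fluoxetine, a rise of 3.13 ± 0.11, while the other read 3.87 and 3.83 against 3.33 and 3.34 and fell by 0.52 ± 0.07. The 2 probes were thus called in opposite directions, and the gene's change is uncertain. Others were Snora34, Neat1, the lncRNA genes 4933429K18Rik (1.49 ± 0.08), Gm36117 (1.31 ± 0.09), Gm19639 (1.20 ± 0.07) and Gm13375 (1.18 ± 0.10) and a non-coding variant of Rexo5 (1.26 ± 0.09). The largest bounds on rises were at least 3.04-fold for Gm36908, 2.89-fold for Gm19424 and 2.75-fold for A530013C23Rik, none of them well above background in controls. Gm36908 read -4.28 and -2.55 after fluoxetine, so its size differed between replicates.

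Among probes above background on all 4 arrays, the largest fall was that of 4933405E24Rik, a lncRNA gene named from a Riken clone. It read 0.22 and -0.43 in controls and -4.10 and -4.07 after fluoxetine, a fall by 3.98 ± 0.25 (limma adjusted p = 0.0142). The pseudogene Gm4971 read -0.86 and -1.60 against -4.13 and -4.46 and fell by 3.06 ± 0.31. Gm35147 fell by 2.32 ± 0.28, Speer4cos by 2.30 ± 0.21, BC065397 by 1.78 ± 0.39, 5430431A17Rik by 1.75 ± 0.09 and Gm20753 by 1.65 ± 0.11. In each the groups were apart. 5730522E02Rik read -1.30 and -0.93 in controls, was not well above background after fluoxetine, and was at least 16.5-fold lower. Gm16041 was at least 6.64-fold lower, and Gm32178 at least 7.06-fold lower on uneven controls (-0.60 and -4.07), which was not called (limma adjusted p = 0.0764). In all, 39 of 1318 tested non-coding probes were well above background on neither control array and 65 on neither fluoxetine array. Over all 28270 tested probes these numbers were 387 and 630.

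LncRNA as a class sat near the array's background share. Of 804 tested probes 77 (9.58%) rose and 126 (15.7%) fell, beside 12.1% and 14.4% of all tested probes. The median change was -0.03. Those named only as gene models (Gm names, 329 tested) had 35 rises (10.6%) and 50 falls (15.2%). Those named as Riken clones (383 tested) also had 35 rises (9.14%) and 50 falls (13.1%). The 91 tested probes of lncRNA genes with other names had 7 rises (7.69%) and 25 falls (27.5%), so their share of falls was above that of all probes. Under median scaling the class had 190 rises and 78 falls. The 198 tested probes with no matched gene had 16 rises (8.08%) and 40 falls (20.2%).

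Non-coding variants of protein-coding genes, such as transcripts that keep an intron or lack the reading frame, had 9 rises and 17 falls among 68 tested probes (38.2% called, beside 26.5% of all probes). A coding probe of the same gene was tested for 56 of them, and 25 of the 56 were called. In 17 of the 25 the coding probe was not called, and over the array 14295 of 18884 coding transcript probes were not called. In 8 both were called, with 3 pairs higher, 3 lower and 2 opposite. The difference within a pair was not tested.

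The following examples were picked after their values were seen, and variants of other RNA-binding protein genes, namely Snrnp70 (-0.36 ± 0.09), Cirbp (-0.48 ± 0.12) and Hnrnpll (0.21 ± 0.08), were not called. The Hnrnpu variant, from the gene of a nuclear scaffold protein, read 4.10 and 4.16 in controls and 3.02 and 2.90 after fluoxetine and fell by 1.18 ± 0.09 (limma adjusted p = 0.0142), beside -0.05 ± 0.08 for the coding probe. Both Sfpq variant probes fell, by 1.76 ± 0.31 and 1.16 ± 0.22, beside a coding probe that fell by 0.57 ± 0.07. Sfpq encodes a paraspeckle protein. The brighter variant probe read 1.07 and 0.38 in controls and -0.81 and -1.26 after fluoxetine, with the groups apart. Variants of Hnrnpa1 (-0.85 ± 0.13), Rbmx (-0.74 ± 0.08) and Zfp207 (-1.40 ± 0.15 and -0.47 ± 0.08) fell beside coding probes at -0.21, 0.10 and -0.22 that were not called. Taf1d, a subunit of the RNA polymerase I factor SL1 and itself a snoRNA host, fell on both kinds of probe, by 1.08 ± 0.10 and 0.90 ± 0.10.

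Among the rises, the Nfe2l2 variant, from the gene of the oxidative stress factor NRF2, read 1.41 and 1.53 in controls and 2.03 and 2.12 after fluoxetine and rose by 0.60 ± 0.09, beside 0.24 ± 0.08 for the coding probe, which was not called. Rexo5 had a variant that rose by 1.26 ± 0.09 and a coding probe that fell by 0.92 ± 0.09. Chpf2 had a variant that fell by 0.71 ± 0.07 and a coding probe that rose by 0.34 ± 0.07. Sec14l1 rose on both, by 0.98 ± 0.08 and 0.47 ± 0.10, and so did Mipep, by 0.41 ± 0.09 and 1.29 ± 0.08. Rab3il1 rose on both, with its variant at least 2.36-fold higher.

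**Figure D5:**
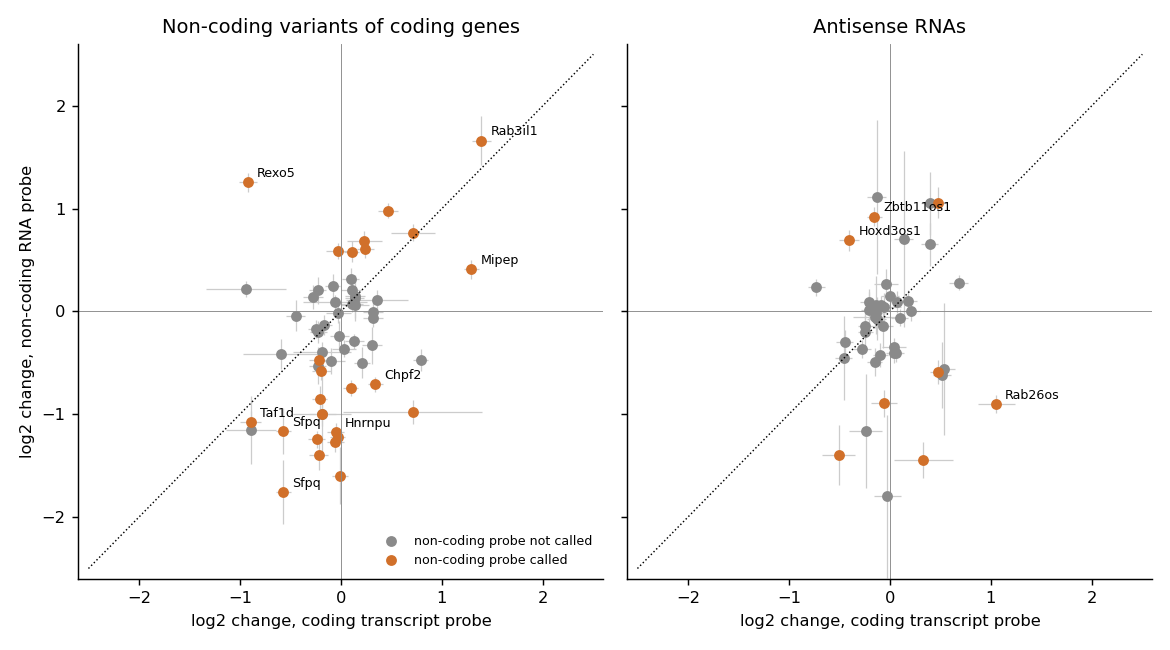
Non-coding RNA probes against coding probes of the same gene (left, 56 probes) or of the sense gene (right, 43 probes). Both axes are log2 changes after fluoxetine with SE bars; orange points are non-coding probes called at adjusted p under 0.05, and the dotted line marks equal change. Hnrnpu lies at -1.18 for the variant and -0.05 for the coding probe, and Rab26os lies at -0.90 beside 1.05 for Rab26.

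Few antisense RNA probes were called. Of 51 tested probes (46 genes) 3 rose and 5 fell, so 15.7% were called beside 26.5% of all probes. A probe of the sense gene was tested for 43 of them. Rab26os read 4.43 and 4.46 in controls and 3.61 and 3.47 after fluoxetine and fell by 0.90 ± 0.09 (limma adjusted p = 0.0158), while Rab26, a vesicle GTPase, rose by 1.05 ± 0.18. Zbtb11os1 read 1.01 and 1.15 against 2.03 and 1.97 and rose by 0.92 ± 0.09, beside -0.15 ± 0.07 for Zbtb11, which was not called. Hoxd3os1 rose by 0.69 ± 0.10 with Hoxd3 at -0.40 ± 0.10, not called (limma adjusted p = 0.0586). All 3 antisense probes had groups that did not overlap.

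Atcayos was at least 1.68-fold lower, and Phtf1os and Bloc1s6os fell by 1.40 ± 0.29 and 0.89 ± 0.13, each without a called sense probe. Ttc39aos1 was called in both directions, with the brighter probe falling by 0.59 ± 0.11 and the dimmer at least 1.45-fold higher. Junos, antisense to Jun, was not called on either probe (0.65 ± 0.21 and 1.05 ± 0.31), while Jun rose by 0.39 ± 0.08. Under median scaling 11 antisense probes rose and 3 fell.

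Pseudogenes were detected more often than lncRNA, with 147 of 310 probes tested (47.4%). Of these 6 rose (4.08%) and 25 fell (17%), beside 12.1% and 14.4% of all tested probes. In all, 21.1% were called, beside 26.5% of all probes. Changes were below 0 for 98 probes, with a median of -0.18. Many pseudogenes are near-identical copies of an active gene, so their probes may read the parent's RNA and their values are uncertain. Tyms-ps read 0.06 and 0.07 in controls and -0.55 and -0.47 after fluoxetine and fell by 0.57 ± 0.08, beside -0.55 ± 0.07 for Tyms, the thymidylate synthase gene, also called lower. Gpr137b-ps rose by 0.67 ± 0.11 beside a rise of 0.53 ± 0.09 for Gpr137b. Hmga2-ps1 (2.20 and 1.98 against 1.19 and 1.44) fell by 0.78 ± 0.14 beside 0.24 ± 0.09 for Hmga2, which was not called. H2-K2, a pseudogene of the class I histocompatibility family, read 4.37 and 4.56 against 5.10 and 5.12 and rose by 0.65 ± 0.10. All 3 probes of Mrgpra6 fell, by 1.53 ± 0.09, 1.08 ± 0.11 and 0.68 ± 0.10. Under median scaling 27 pseudogene probes rose and 18 fell.

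Probes of a gene did not always move together. Of 63 non-coding genes with more than 1 tested probe, 41 had all changes of the same sign and 22 did not, and AY036118 and Ttc39aos1 had opposite calls. Of 826 lncRNA, antisense and host genes, each taken at its brightest tested probe, 635 had a nearest coding gene that was tested. In 282 of the 635 pairs the genes overlapped in the gene table. The non-coding gene was called in 153 pairs, and in 39 of these its neighbour was called too. Over the array 24.3% of coding transcript probes were called. Of the 39 pairs, 12 were both higher, 10 both lower and 17 opposite. Over the 635 pairs Pearson's r was 0.0035 and Spearman's rho 0.05, given as a description of probes that share the arrays. One opposite pair was Gm13375 (1.18) and Arhgap21 (fell by 0.49 ± 0.10), which are neighbours in the gene table.

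Genes of the proteins that act on these RNA classes were measured as messenger RNA by coding probes, 1 per gene, and no protein was measured. Over all coding transcript probes 14.8% were called higher and 9.46% lower. Of 14 tested nonsense-mediated decay genes 5 fell and 0 rose (9 were not called): the exon junction protein Rbm8a by 0.73 ± 0.13, Upf3b by 0.55 ± 0.08, Upf2 by 0.54 ± 0.11, the helicase Upf1 by 0.42 ± 0.07 and Casc3 by 0.37 ± 0.08. Of 14 paraspeckle protein genes 4 fell, including Taf15 by 1.55 ± 0.12 and Sfpq by 0.57 ± 0.07, and 1, Dazap1, rose by 0.63 ± 0.11. Of 9 snoRNP protein genes 2 fell, the pseudouridine synthase Dkc1 by 1.04 ± 0.11 and the box C/D protein Nop56 by 0.73 ± 0.08. Of 12 microRNA processing genes Ago3 and Dgcr8 rose, by 0.59 ± 0.08 and 0.39 ± 0.08, and Dicer1 fell by 0.43 ± 0.09. The median changes of these lists were -0.27, -0.14, -0.17 and 0.24, beside 0.03 over coding transcript probes.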

How the data were processed

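The deposited values are linear spot intensity which, per the file headers, Feature Extraction 12.1.0.3 had corrected for background and the authors had not scaled between arrays. From them the log2 of the processed signal was taken, flagged spots were left out, spots of a probe were averaged, and each array's 75th percentile over non-control spots was subtracted. Probes well above background in both replicates of either group were fitted with limma 3.58.1 (R 4.3.3), with group as the only term, on 28270 probes, and called at a Benjamini-Hochberg adjusted p under 0.05. Errors after ± are limma's standard errors with n = 2 arrays per group. An exact permutation test of a single probe could not go below p = 0.333 with 2 arrays against 2.

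A probe well above background on neither array of a group has only a bound ("at least N-fold"): the brighter group's mean against, per dim array, its own signal or that array's lowest signal marked well above background, whichever is higher. RNA types came from the gene table's biotype and symbol, since that table holds no descriptions.

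Genes were named by rule: the 8 probes that rose most and the 8 that fell most among called probes above background on all 4 arrays with groups apart, the 3 largest bounds in each direction, the largest called rise and fall of each type, a list of known non-coding RNA genes, and called members of 4 lists of proteins; other examples were chosen after their values were seen. Members and lists were chosen with earlier results of these data known. The files hold no mean foreground signal, so the normexp alternative (offset 50) used the median signal. The methods were checked on simulated data. The number of arrays limits the precision. Whether equal replicate numbers pair the samples is not stated, and the main fit did not pair them.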

Additional observations from a re-analysis of the deposited data

How the results depend on the processing

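Alternatives marked as added were chosen after seeing the data. All 350 called non-coding probes kept their direction under every alternative that gave them a value. Alternatives that changed only the filter, the choice of probes, the variance model or the block reused the same log2 changes. In those, direction could not turn. Nor can leaving out an array turn the sign of a probe whose groups do not overlap. The counts of calls did move. Against 113 higher and 237 lower non-coding probes (3416 and 4069 of all probes), median scaling gave 290 and 158 (8364 and 2430). Without the filter on dim probes limma called 0 and 0 (0 and 0; 664 non-coding probes had an unadjusted p under 0.05). With the replicate number as a block limma called 0 and 0 (0 and 0; 504 non-coding probes had an unadjusted p under 0.05). With the crossed block, an added alternative, the counts were 42 and 152 (1319 and 2147). Same-numbered samples' deviations correlated at -0.107 over 28270 probes. Leaving out each array in turn gave 0 to 98 higher and 0 to 148 lower non-coding probes (0 to 1753 and 0 to 2110 of all probes). Counts stayed within 1.5 times under the percentile over probes (added, 123 and 220), the percentile over probes above background on all arrays (added, 102 and 253), quantile normalization (149 and 202), normexp (105 and 212), probes above background on all arrays (122 and 224), 1 probe per gene (99 and 199), the trend and robust model (138 and 277) and non-uniform spots kept (113 and 236).

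Signs turned only for named probes that were not called: under median scaling the brighter Gas5 probe (0.012), the dimmer Lncpint probe (1.997e-05), Rnu2-10 (0.11), Scarna13 (0.19), Snhg10 (0.025), Snhg8 (0.12) and Tug1 (0.040). Scarna13 also turned with normexp (0.0046). Leaving out each array in turn, Scarna13 ranged from -0.14 to 0.019, Snhg10 from -0.47 to 0.029 and Snhg8 from -0.32 to 0.063, above 0 without fluoxetine 2 for all 3 and without control 2 for Snhg8. The cause was not tested. Slide and scan were not run as a block, since all arrays shared both. Counting a probe as detected on at least 1 array of a group raised detection from 1211 to 1536 probes in controls and from 1201 to 1498 after fluoxetine.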
